A study of Mus musculus with 9 samples.

Results

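The comparison described here is prednisolone against vehicle in myeloid cells sorted from the quadriceps of *mdx* mice, a strain that lacks dystrophin and models Duchenne muscular dystrophy. It uses 6 of the 9 RNA-seq libraries of the series: prednisolone replicates 1 to 3 and vehicle replicates 1 to 3. All mice carried the *mdx* allele and were 4.5 weeks old, and the drug or its vehicle was given for 7 days before the cells were isolated. The remaining 3 libraries came from mice given spironolactone, a mineralocorticoid receptor antagonist, for the same 7 days. They entered the fit for the estimate of the spread and are shown beside the results. Each library held cells pooled from the quadriceps of 3 mice, sorted as CD45+CD11b+ without a separation of live from dead cells. Each group held mice of both sexes, and the sexes in each pool are not given in the sources used here. A healthy, dystrophin-carrying control was not analysed here, so that every value is a difference within dystrophic muscle. Of 50559 genes counted, 16618 passed the filter on low counts and were tested.

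Prednisolone is a synthetic glucocorticoid. Bound to the glucocorticoid receptor, a steroid hormone receptor that acts as a transcription factor, it raises the transcription of some genes through DNA elements and lowers that of many inflammatory genes through interference with factors such as AP-1 and NF-kappaB. In dystrophic muscle, fibers degenerate and regenerate repeatedly, and monocytes that enter the tissue become macrophages that clear debris, divide locally and exchange signals with fibroblasts and muscle stem cells. The values below are levels in CPM, the counts of a gene scaled to the TMM-adjusted library size, and a difference is a log2 fold change, prednisolone minus vehicle, with its standard error. A gene is called when its adjusted p (edgeR quasi-likelihood test, Benjamini-Hochberg over the 16618 genes) is under 0.05. In bulk RNA, fewer cells of a type and less RNA per cell cannot be told apart.

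The libraries were deep and alike in size, with 31469815 to 32943512 counts on genes. The sorted cells carried the markers of their gate: Ptprc, which encodes CD45, was at 571 to 660 CPM and Itgam, which encodes CD11b, at 1127 to 1486 CPM in the 6 libraries. The 30 lymphocyte and natural killer cell genes summed to 50.6 to 80.5 CPM, but 5 of them, Trac, Trbc1, Trbc2, Ighm and Igkc, had no count in any of the 6 libraries, so that the sum holds none of the antigen receptor constant chains on the list. Sex-linked genes differed among the libraries, and none of the 5 tested was called. Xist, a gene of female cells, was at 318, 217 and 508 CPM in vehicle replicates 1 to 3. In prednisolone replicates 1 to 3 it was at 489, 301 and 303 CPM. The Y-linked Ddx3y was at 31.7, 31.5 and 6.70 CPM in vehicle and 18.7, 27.5 and 24.4 CPM in prednisolone. Among the 6 libraries, vehicle replicate 3 stood apart in its granulocyte genes. The 23 neutrophil genes summed to 6232 CPM there, against 1054 to 1612 CPM in the other 5 libraries, with S100a8 at 645 CPM against 39.4 to 98.6 CPM and Mpo, a granule enzyme of neutrophil precursors, at 32.3 CPM against at most 2.58 CPM. In spironolactone replicates 1 to 3 the neutrophil genes summed to 1767, 2157 and 4466 CPM, and Mpo was at 11.8, 10.7 and 21.0 CPM. On the first principal component of the 6 libraries, which held 33.3% of the variance, vehicle replicate 3 lay at -28.02 and the 3 prednisolone libraries lay between 8.76 and 15.16. On the second, with 26.4% of the variance, vehicle replicate 1 lay at -28.33 and the other 5 libraries at -0.90 or above. Vehicle libraries were farther from each other (distances 41.4 to 47.4) than prednisolone libraries (29.9 to 31.6), and the distances between the groups (37 to 47.1) overlapped those among vehicle libraries.

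Prednisolone changed 293 of 16618 genes (1.76%), of which 167 were higher (1.0%) and 126 lower (0.758%). At an unadjusted p under 0.05 the numbers were 1185 higher and 1175 lower. The median difference was 0.75 among the genes called higher and -0.76 among those called lower, and 33 higher and 41 lower genes differed by at least 1 on the log2 scale. In all 293 the 3 prednisolone libraries lay outside the range of the 3 vehicle libraries. Over all genes tested, the prednisolone libraries lay wholly above the vehicle range in 1732 (10.4%) and wholly below it in 1541 (9.27%). The number of calls changed when 1 library was left out, which also leaves fewer libraries to test with. Leaving out prednisolone replicates 1, 2 and 3 in turn gave 153, 69 and 119 calls, and leaving out vehicle replicates 1, 2 and 3 gave 826, 127 and 179. Without spironolactone replicate 2 or 3, which are not in the contrast, the calls were 237 and 257. Of the 293 calls, 65 were kept in each of the 9 fits that leave out a library, and no call took the opposite direction in any of them.

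**Figure D1:**
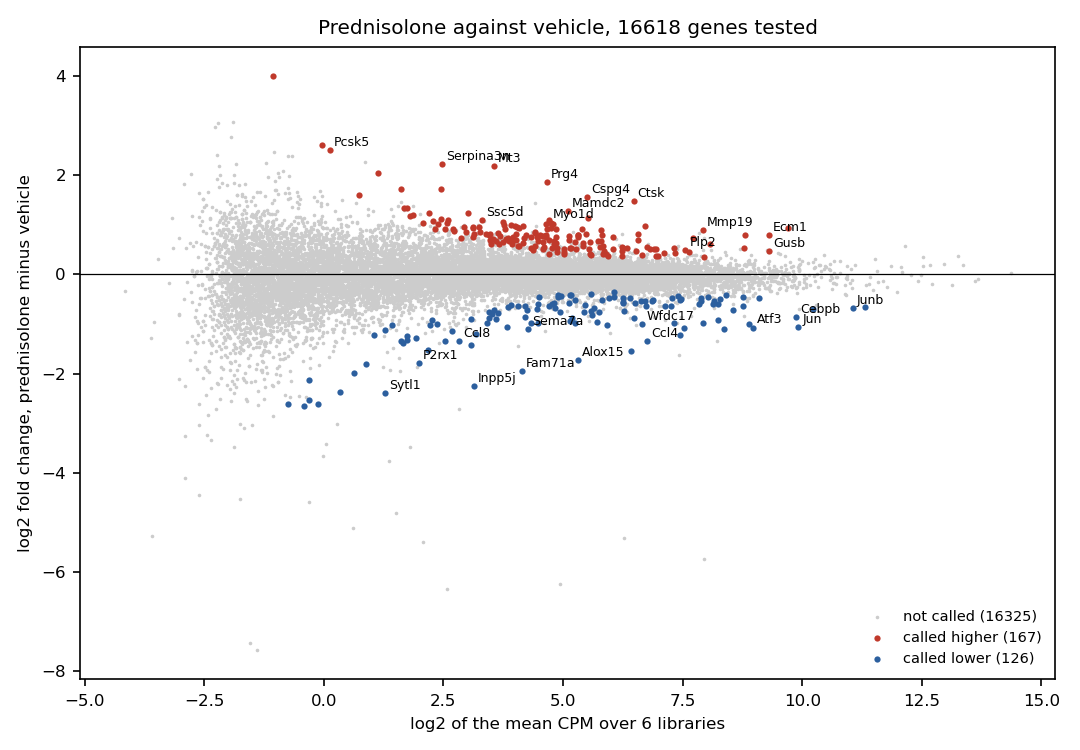
Each point is 1 of 16618 genes, with the log2 of its mean CPM over the 6 libraries on the horizontal axis and its log2 fold change, prednisolone minus vehicle, on the vertical axis; red points are the 167 genes called higher, blue points the 126 called lower, and gray points the rest. The abundant genes called lower on the right include Jun, Junb, Dusp1 and Zfp36, and the gray points far below the axis at moderate levels include genes such as Mpo and S100a8 that were high in vehicle replicate 3.

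Of the 39 lists, that of mitosis held the most genes called higher. Cells that enter mitosis raise a shared set of kinases, cyclins, kinesins and kinetochore proteins, and the promoters of many of these genes hold a cell cycle genes homology region (CHR, letters TTTGAA) near their start and CCAAT boxes (CCAAT) upstream of it. The promoters of 3 mitosis genes called higher are shown, Ccnb2 and Ube2c because they hold both elements and Anln because it holds CHR letters without a CCAAT box, with CHR and CCAAT letters on either strand in capitals. They run 5' to 3' in the direction of the gene, from 220 bases before to 30 bases after the RefSeq gene start, and were placed on GRCm39 by an exact match that occurs once in that build. Ccnb2 is at chr9:70328807-70329056 on the minus strand, Ube2c at chr2:164611629-164611878 on the plus strand and Anln at chr9:22300473-22300722 on the minus strand.
Ccnb2: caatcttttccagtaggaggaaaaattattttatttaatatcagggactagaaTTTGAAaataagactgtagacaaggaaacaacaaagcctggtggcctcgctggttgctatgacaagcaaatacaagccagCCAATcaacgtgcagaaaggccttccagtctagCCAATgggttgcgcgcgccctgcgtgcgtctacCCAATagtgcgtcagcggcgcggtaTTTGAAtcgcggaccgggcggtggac
Ube2c: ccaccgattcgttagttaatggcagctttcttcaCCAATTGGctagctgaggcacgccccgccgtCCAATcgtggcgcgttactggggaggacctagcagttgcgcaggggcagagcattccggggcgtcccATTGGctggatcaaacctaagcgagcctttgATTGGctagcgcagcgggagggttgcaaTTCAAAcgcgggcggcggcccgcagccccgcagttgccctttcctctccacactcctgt
Anln: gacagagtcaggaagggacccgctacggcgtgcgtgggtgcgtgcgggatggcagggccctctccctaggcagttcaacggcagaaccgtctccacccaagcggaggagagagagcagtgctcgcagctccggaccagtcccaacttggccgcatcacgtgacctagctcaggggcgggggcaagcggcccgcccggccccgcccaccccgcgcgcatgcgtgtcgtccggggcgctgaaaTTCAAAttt
In Ccnb2, CHR letters began at 167 bases before and at base 5 after the start, and CCAAT boxes began at 87, 54 and 21 bases before it. In Anln the CHR letters began at base 22 after the start and the printed stretch held no CCAAT box.

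A RefSeq promoter window of 300 bases was found for 22 of the 26 mitosis genes called higher. CHR letters on either strand were present in 17 of these 22 (77.3%), a CCAAT box in 18 (81.8%) and both in 15 (68.2%). Among all 27025 genes with a window the shares were 20.2%, 41.1% and 7.97%. The 54 mitosis genes with a window, called or not, gave 72.2%, 75.9% and 63%, so that the called members were like the list they belong to. Among the 133 genes called higher that had a window, mitosis genes included, 25.6% held CHR letters and 15% held both. A match is a description of letters in this window and not a bound site, and the windows of genes tested only were lower in CHR letters (15.3%) than those of all genes.

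Of 66 mitosis genes tested, 26 were higher after prednisolone and none lower, beside 1.0% called higher among all genes. At an unadjusted p under 0.05 the edgeR numbers were 62 higher and 0 lower, and DESeq2 called 43 higher and 0 lower. The estimate was above 0 in 65 of the 66, the exception being Cks2 at -0.19, and the median difference was 0.63 beside -0.014 over all genes tested. Plk1, the kinase that drives entry into mitosis and spindle assembly, was at 20.8, 14.4 and 17.7 CPM in vehicle replicates 1 to 3 and at 30.8, 33.1 and 36.1 CPM in prednisolone replicates 1 to 3. Every prednisolone library was above every vehicle library, and the difference was 0.92 ± 0.13 (SE, n = 3 per group, adjusted p = 0.00376 by edgeR). Anln encodes anillin, a scaffold of the contractile ring. It was at 23.1, 14.9 and 16.8 CPM in vehicle and 35.2, 34.1 and 40.8 CPM in prednisolone libraries, 1.01 ± 0.16 higher (adjusted p = 0.00955). Ccnb2, a B-type cyclin that activates the mitotic kinase, was at 17.5, 17.3 and 15.8 CPM in vehicle and 24.3, 29.95 and 33.2 CPM in prednisolone, 0.79 ± 0.12 higher (adjusted p = 0.00577). The groups did not overlap for either gene. Ube2c, the ubiquitin-conjugating enzyme of the anaphase-promoting complex, was at 27.6, 24.9 and 25.1 CPM in vehicle and 38.5, 47.6 and 46.9 CPM in prednisolone, 0.78 ± 0.13 higher (adjusted p = 0.00767, and 0.0593 without prednisolone replicate 2).

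The other mitosis genes called higher covered several steps of division. They were the cyclins Ccna2 and Ccnb1, the transcription factor Foxm1, which drives the mitotic program, the kinase Aurka and its activator Tpx2, the checkpoint genes Bub1, Bub1b and Mad2l1, the kinetochore genes Cenpf and Spc25, the kinesins Kif20a, Kif22, Kif23 and Kif2c, the topoisomerase Top2a, the spindle and midzone genes Hmmr, Nusap1, Prc1, Ckap2l and Gtse1, and the cytokinesis regulators Ect2 and Racgap1. Their differences ran from 0.53 for Kif23 and Nusap1 to 1.03 for Kif20a. Top2a, the most abundant of the 26, was at 83.7, 54.5 and 77.2 CPM in vehicle and 114, 127 and 109 CPM in prednisolone libraries, 0.70 ± 0.13 higher (adjusted p = 0.0188). This call was not kept in all 9 fits without a library, nor in all 12 alternatives in tool, scaling, filter, dispersion, block and covariate. Mki67, the usual marker of dividing cells, was at 253, 128 and 171 CPM in vehicle and 289, 317 and 318 CPM in prednisolone. Its difference of 0.74 ± 0.20 did not pass (adjusted p = 0.0949). Of the vehicle libraries, replicate 1 was the closest to the prednisolone range. Birc5, a subunit of the chromosomal passenger complex, did not pass either, at 0.57 ± 0.15 (adjusted p = 0.0762). The summed level of the 66 genes was 1149 to 1671 CPM in vehicle, 1948 to 2250 CPM in prednisolone and 1403 to 1586 CPM in spironolactone libraries.

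S-phase genes, which encode the enzymes and loading factors of DNA replication, were called higher in 5 of 47 and lower in none by edgeR, beside the 1.0% of all genes called higher (30 higher and 0 lower at an unadjusted p under 0.05, 16 higher by DESeq2), with a median difference of 0.42 and 41 of 47 estimates above 0. The 5 were Rrm1 and Rrm2, the subunits of ribonucleotide reductase, the thymidine kinase Tk1, the DNA polymerase epsilon subunit Pole and the G1/S cyclin Ccne1. Rrm1 was at 51.4, 37.4 and 47.7 CPM in vehicle and 67.9, 71.3 and 64.8 CPM in prednisolone, 0.58 ± 0.12 higher (adjusted p = 0.0263). Ccne1 was at 6.93, 4.77 and 6.14 CPM in vehicle and 12.9, 11.4 and 10.2 CPM in prednisolone, 0.95 ± 0.21 higher (adjusted p = 0.0326). The replication clamp Pcna showed 0.09 ± 0.10 (adjusted p = 0.763). Among 27 regulators of the cell cycle that include the D cyclins and the inhibitors, none was called by edgeR (6 higher and 4 lower at an unadjusted p under 0.05), DESeq2 called 2 higher and 1 lower, and 18 estimates were above 0. Ccnd1 came closest, at 55.0, 48.4 and 69.7 CPM in vehicle and 91.8, 77.8 and 90.0 CPM in prednisolone (0.58 ± 0.14, adjusted p = 0.0611).

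These counts changed when 1 library was left out. Each such fit also has fewer libraries to test with, and the part of this in the numbers was not tested. The 26 mitosis calls became 14, 3 and 6 when prednisolone replicates 1, 2 and 3 were left out in turn, and 8 and 10 when vehicle replicates 2 and 3 were. Leaving out vehicle replicate 1, the vehicle library in which these genes were highest, gave 50. The 5 S-phase calls became 0, 0 and 1 without prednisolone replicates 1 to 3, and 16, 0 and 2 without vehicle replicates 1 to 3. Plk1, Ccnb2 and Anln were called in all 9 of these fits.

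**Figure D2:**
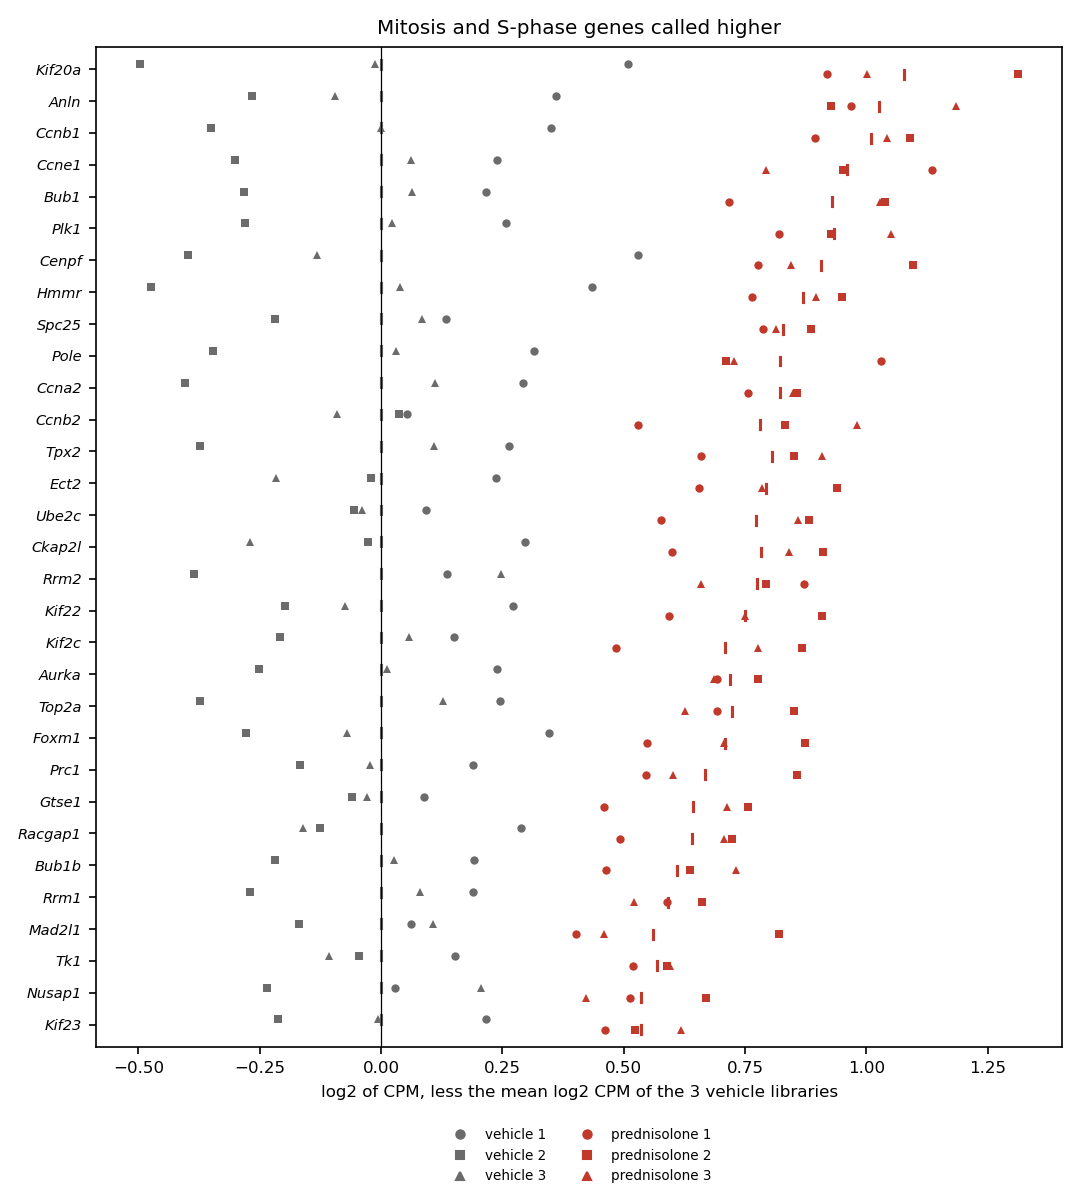
For each of the 31 mitosis and S-phase genes called higher, points show the log2 CPM of each vehicle (gray) and prednisolone (red) library after subtraction of the mean of the 3 vehicle libraries, and short bars show group means. All red points lie to the right of all gray points of the same gene, and the gray circle of vehicle replicate 1 is the rightmost gray point for most genes.

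Outside the cell cycle, the genes called higher with the smallest adjusted p and a difference of at least 1 included the matrix proteoglycans Prg4 and Cspg4. Prg4, which encodes the lubricating proteoglycan lubricin, was at 9.94, 13.3 and 9.38 CPM in vehicle and 47.3, 39.6 and 31.6 CPM in prednisolone, 1.86 ± 0.18 higher (adjusted p = 0.000408). Cspg4, the chondroitin sulfate proteoglycan NG2, was at 28.3, 18.1 and 22.1 CPM in vehicle and 67.2, 76.1 and 58.8 CPM in prednisolone, 1.56 ± 0.16 higher (adjusted p = 0.000495). The lowest prednisolone library was above the highest vehicle library by more than the whole vehicle range for each gene. Cspg4 is also a marker of pericytes, and Prg4 is expressed by fibroblast-like cells. Of 22 mural and satellite cell genes tested, Cspg4 was the only one called, and the list summed to 210 to 310 CPM in vehicle and 291 to 330 CPM in prednisolone. Of 26 fibro-adipogenic genes none was called by edgeR (2 at an unadjusted p under 0.05, 0 by DESeq2), and their sum was 1443 to 1939 CPM in vehicle and 1849 to 1938 CPM in prednisolone. The part of such cells in the result was not tested.

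Within the adhesion and matrix list, 7 of 43 genes were higher and none lower by edgeR, beside 1.0% called higher among all genes (17 higher and 2 lower at an unadjusted p under 0.05, 11 higher and 2 lower by DESeq2), and the median was 0.24. Besides Prg4 and Cspg4 these were Ecm1, Col18a1, the integrin alpha chain Itgax, the tetraspanin Cd81 and the syndecan Sdc1. Prg4, Cspg4 and Ecm1 kept the call in all 9 fits without a library. Cd81 (0.69 ± 0.14, adjusted p = 0.0264) lost it without prednisolone replicate 2 or 3 or vehicle replicate 2, and Sdc1 (0.81 ± 0.16, adjusted p = 0.0263) without any of the prednisolone replicates or vehicle replicate 2, with adjusted p up to 0.149. Ecm1, a secreted matrix glycoprotein, was among the most abundant genes called higher, at 479 to 495 CPM in vehicle replicates 1 and 2 and 414 CPM in replicate 3, against 739, 808 and 846 CPM in prednisolone libraries (0.79 ± 0.11, adjusted p = 0.00376). Col18a1, the source of endostatin, was at 12.5, 19.6 and 21.1 CPM in vehicle and 32.0, 38.4 and 37.9 CPM in prednisolone (1.03 ± 0.18, adjusted p = 0.0128, and 0.0803 and 0.0522 without prednisolone replicates 2 and 3). Itgax, which encodes CD11c, was at 334, 325 and 323 CPM in vehicle and 471, 654 and 581 CPM in prednisolone. Its difference of 0.80 ± 0.15 passed (adjusted p = 0.0197) but not without prednisolone replicate 2 or 3 or vehicle replicate 2 or 3, where the adjusted p was at most 0.117. Fn1, the gene of fibronectin and one of the most abundant genes of these cells, was at 3890, 3904 and 3167 CPM in vehicle and 6068, 5005 and 5189 CPM in prednisolone, a difference that did not pass (0.57 ± 0.16, adjusted p = 0.0922). The prednisolone libraries were nevertheless all above the vehicle libraries. With DESeq2, the study reported Fn1, Hif1a, Flt3 and Atp2a1 as increased by prednisolone and Thbs1 and Fos as reduced. None of these genes passed here with edgeR. On these counts DESeq2 called 684 genes on all 9 libraries, beside 293 by edgeR.

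Few protease genes were called. Of 29 metalloproteinase, inhibitor and plasminogen system genes, 2 were higher and none lower by edgeR, beside 1.0% called higher among all genes (3 higher and 2 lower at an unadjusted p under 0.05, 3 higher and 1 lower by DESeq2). Mmp12, the macrophage elastase, was at 577, 580 and 560 CPM in vehicle and 925, 1374 and 997 CPM in prednisolone, 0.94 ± 0.13 higher (adjusted p = 0.00376). Mmp19 was at 150, 184 and 176 CPM in vehicle and 346, 341 and 256 CPM in prednisolone, 0.89 ± 0.13 higher (adjusted p = 0.00553). Ctsk, the collagen-degrading cathepsin K, was at 39.8, 38.6 and 63.0 CPM in vehicle and 118, 157 and 117 CPM in prednisolone, 1.47 ± 0.21 higher (adjusted p = 0.00816). None of the 3 genes showed overlap between the groups. In the list of lipid-handling and repair macrophage genes, Ctsk and Mmp12 were the 2 higher of 29 tested by edgeR, beside 1.0% higher and 0.758% lower among all genes (7 higher and 9 lower at an unadjusted p under 0.05, 3 higher and 4 lower by DESeq2), and the fatty acid binding protein Fabp5 was lower at -0.64 ± 0.13 (adjusted p = 0.0282, and up to 0.162 without prednisolone replicate 2 or 3 or vehicle replicate 2 or 3). Spp1 and Gpnmb, abundant genes of the same list, did not pass, with differences of 0.36 ± 0.16 (adjusted p = 0.325) and 0.34 ± 0.13 (adjusted p = 0.249). The lysosomal enzyme Gusb (0.46 ± 0.10, adjusted p = 0.0264) and the membrane protein Plp2 (0.49 ± 0.10, adjusted p = 0.0208) were the other abundant genes called higher. They lost the call without any of the prednisolone replicates and without vehicle replicate 2, Gusb also without vehicle replicate 3, with adjusted p up to 0.14.

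The remaining genes with the smallest adjusted p among increases of at least 1 were of mixed function. Serpina3n, a serine protease inhibitor of the acute phase, was at 1.37, 2.496 and 1.93 CPM in vehicle and 8.47, 10.03 and 8.73 CPM in prednisolone (2.23 ± 0.28, adjusted p = 0.00193). Mt3, a metallothionein, was at 3.80, 4.18 and 4.74 CPM in vehicle and 16.9, 29.1 and 11.6 CPM in prednisolone (2.18 ± 0.28, adjusted p = 0.00333), while its relatives Mt1 and Mt2, textbook glucocorticoid targets, gave -0.11 ± 0.12 (adjusted p = 0.747) and 0.51 ± 0.26 (adjusted p = 0.418). Pcsk5, a proprotein convertase, was low in all libraries, at 0.213, 0.406 and 0.343 CPM in vehicle and 2.13, 1.77 and 1.60 CPM in prednisolone (2.50 ± 0.40, adjusted p = 0.0075). Myo1d, an unconventional myosin, rose by 1.05 ± 0.11 (adjusted p = 0.000408), Mamdc2 by 1.27 ± 0.15 (adjusted p = 0.00143), Angptl2, a secreted angiopoietin-like protein, by 1.14 ± 0.17 (adjusted p = 0.0064), Ssc5d, a soluble scavenger receptor, by 1.10 ± 0.16 (adjusted p = 0.00436) and Sel1l3 by 1.01 ± 0.14 (adjusted p = 0.00261). Pdgfb is the growth factor chain that recruits pericytes and acts on fibroblasts. Of 36 cytokine and growth factor genes tested it was the only one that edgeR called higher, beside 1.0% among all genes (2 higher at an unadjusted p under 0.05, and 2 by DESeq2). It was at 29.0, 30.1 and 28.3 CPM in vehicle and 51.2, 61.5 and 52.7 CPM in prednisolone, 0.92 ± 0.13 higher (adjusted p = 0.00318). These calls were kept in each of the 9 fits that leave out a library. The call of Pcsk5 was not kept in all 12 alternatives in tool, scaling, filter, dispersion, block and covariate.

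Further called genes, chosen after their values were seen, had large estimates at lower levels and with larger adjusted p. Ina, which encodes a neuronal intermediate filament protein, had the largest estimate of the genes called higher, but was at 0.0312 to 0.0624 CPM in vehicle and 0.638 to 1.10 CPM in prednisolone (adjusted p = 0.0337), a vehicle level of too few counts for a fold change. Arfgef3 was at 0.122, 0.374 and 0.312 CPM in vehicle and 1.21, 2.69 and 1.099 CPM in prednisolone (2.62 ± 0.55, adjusted p = 0.0296), and Tg, the gene of thyroglobulin, was at 1.004, 0.780 and 0.779 CPM in vehicle and 3.37, 5.44 and 1.81 CPM in prednisolone (2.05 ± 0.41, adjusted p = 0.0239). The groups did not overlap in any of the 3. Each lost its call without prednisolone replicate 1 or 2 or vehicle replicate 2 or 3, and Ina and Arfgef3 also without prednisolone replicate 3, with adjusted p up to 0.218.

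Among the genes called lower, immediate early genes were the most numerous of the 39 lists, which cells transcribe within minutes of a stimulus. Of 41 tested, 10 were lower and none higher by edgeR, beside 0.758% called lower among all genes. At an unadjusted p under 0.05 the numbers were 24 lower and 0 higher, and DESeq2 called 16 lower and 0 higher, with 36 estimates below 0 and a median of -0.34. Jun, a subunit of AP-1, was at 1543, 1229 and 1132 CPM in vehicle and 762, 623 and 486 CPM in prednisolone libraries, lower by 1.06 on the log2 scale (SE 0.16, adjusted p = 0.00661, written as -1.06 ± 0.16 from here on). Atf3, a stress-induced repressor of the ATF family, was at 712, 666 and 656 CPM in vehicle and 404, 318 and 244 CPM in prednisolone (-1.07 ± 0.16, adjusted p = 0.00455). For both, prednisolone replicate 3 was the lowest library and prednisolone replicate 1 the highest of its group. Ier5 was at 372, 403 and 401 CPM in vehicle and 236, 206 and 183 CPM in prednisolone (-0.91 ± 0.11, adjusted p = 0.00116). Gadd45b, a stress sensor that acts on the p38 and JNK kinases, was at 306, 319 and 345 CPM in vehicle and 201, 170 and 123 CPM in prednisolone (-0.97 ± 0.15, adjusted p = 0.00885). These 4 genes kept the call in all 9 fits without a library.

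The others were Junb, Klf6, Rgs1, Zfp36, Dusp1 and Dusp2. Zfp36 encodes tristetraprolin, which destabilizes cytokine mRNA, and Dusp1 and Dusp2 encode phosphatases of MAP kinases. Zfp36 was at 3281, 3053 and 2984 CPM in vehicle and 2472, 1900.1 and 1517 CPM in prednisolone (-0.66 ± 0.14, adjusted p = 0.0337). Junb was at 2471, 2586 and 2809 CPM in vehicle and 1888, 1692 and 1343 CPM in prednisolone (-0.68 ± 0.13, adjusted p = 0.0169). Dusp1, itself a known target induced by glucocorticoids, was at 1336, 1334 and 1741 CPM in vehicle and 1056, 940.1 and 723 CPM in prednisolone (-0.70 ± 0.15, adjusted p = 0.0295). All 3 were lower in every prednisolone library. The calls of Zfp36, Junb and Dusp1 were lost without prednisolone replicate 2 or 3 and without vehicle replicate 2 or 3, and that of Zfp36 also without spironolactone replicate 2 or 3, with adjusted p up to 0.162. Fos fell short of the threshold, at 1628, 1402 and 1512 CPM in vehicle and 1181, 1003 and 788 CPM in prednisolone (-0.61 ± 0.15, adjusted p = 0.0518). Egr1 overlapped between the groups (-0.05 ± 0.22, adjusted p = 0.949).

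The promoter of Dusp1 is shown because it was the only one of the 9 immediate early genes called lower with a RefSeq window that held the palindromic cyclic AMP response element (CRE, letters TGACGTCA), an element bound by CREB and ATF proteins. It lies at chr17:26727417-26727666 on the minus strand of GRCm39, from 220 bases before to 30 bases after the gene start, with the element in capitals at 143 bases before the start.
Dusp1: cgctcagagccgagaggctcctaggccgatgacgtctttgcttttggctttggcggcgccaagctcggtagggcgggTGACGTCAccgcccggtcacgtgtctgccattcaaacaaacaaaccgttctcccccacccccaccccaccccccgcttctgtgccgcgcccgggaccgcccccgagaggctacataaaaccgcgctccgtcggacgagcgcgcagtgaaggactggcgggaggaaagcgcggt
Among the 94 genes called lower with a window, 5 (5.32%) held CRE letters, beside 2.03% of all 27025 genes and 3.16% of the genes tested. AP-1 letters (TGANTCA) were in 6 of the 94 (6.38%), beside 8.97% of all genes and 6.88% of the genes tested, and a 15-letter glucocorticoid response element was in none of the windows of called genes and in 3 of the 27025.

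The immediate early list summed to 19733 to 20613 CPM in vehicle, 11107 to 16206 CPM in prednisolone and 15165 to 16107 CPM in spironolactone libraries, so that both drug groups lay below the vehicle range. The 10 calls became 4 without prednisolone replicate 2, 5 without prednisolone replicate 3 and 6 without vehicle replicate 2 or 3. Tissue dissociation is a known trigger of the same genes. Among 17 heat shock and stress genes that respond to dissociation, 8 were lower and 1 higher at an unadjusted p under 0.05, and in 8 all prednisolone libraries were below all vehicle libraries, beside 9.27% of all genes. DESeq2 called 4 lower and 1 higher, and edgeR called 2, both lower, beside 0.758% called lower among all genes. These were Hspa1a at -0.50 ± 0.09 (adjusted p = 0.0152) and Hspa1b at -0.41 ± 0.09 (adjusted p = 0.0448), near-identical copies whose reads may be split between them. Both lost the call without any of the prednisolone replicates and without vehicle replicate 2, Hspa1b also without vehicle replicate 3 or spironolactone replicate 2, with adjusted p up to 0.162. The 17 genes summed to 7305 to 7960 CPM in vehicle and 7203 to 7687 CPM in prednisolone. The part of dissociation in the result was not tested.

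Among chemokines, the CC ligands that attract monocytes, T cells and eosinophils were lower in 3 of 16 tested and higher in none by edgeR, beside 0.758% of all genes (4 lower and 0 higher at an unadjusted p under 0.05, 4 lower and 0 higher by DESeq2). Ccl4 had the smallest adjusted p of all genes called lower, at 138, 167 and 163 CPM in vehicle and 72.6, 56.5 and 55.1 CPM in prednisolone (-1.34 ± 0.11, adjusted p = 0.000219). Ccl3 was at 160.3, 249 and 224 CPM in vehicle and 123, 112 and 87.5 CPM in prednisolone (-0.97 ± 0.16, adjusted p = 0.00966). Ccl8, also a marker of resident macrophages, was at 8.70, 10.7 and 11.2 CPM in vehicle and 4.10, 3.48 and 4.43 CPM in prednisolone (-1.35 ± 0.16, adjusted p = 0.00141). Each prednisolone library was below each vehicle library, and the 3 calls were kept in all 9 fits without a library. Ccl2, the main ligand of inflammatory monocytes, did not pass, at 320, 645 and 496 CPM in vehicle and 470, 324 and 344 CPM in prednisolone (-0.36 ± 0.23, adjusted p = 0.554). The summed level of the 20 CC ligands overlapped, at 2767 to 4555 CPM in vehicle and 3452 to 3829 CPM in prednisolone.

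None of 14 CXC and related chemokines was called by edgeR (1 higher and 2 lower at an unadjusted p under 0.05), DESeq2 called 1 higher, and the median was -0.43. Cxcl14 at 0.71 ± 0.17 (adjusted p = 0.0593) and Cxcl2 at -0.70 ± 0.27 (adjusted p = 0.288) had the smallest p values. Of 17 chemokine receptors, 3 were lower and none higher by edgeR, beside 0.758% called lower among all genes (3 lower and 0 higher also at an unadjusted p under 0.05 and by DESeq2). Ccrl2, a decoy receptor that presents chemerin, was at 439, 432 and 488 CPM in vehicle and 257, 226 and 146 CPM in prednisolone (-1.11 ± 0.17, adjusted p = 0.00888). Cxcr4 was at 349, 340.1 and 330.1 CPM in vehicle and 222, 227 and 250 CPM in prednisolone (-0.54 ± 0.10, adjusted p = 0.013, and up to 0.101 without prednisolone replicate 1 or 2). Ccr3 is described with the eosinophil genes.

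Of 36 cytokine and growth factor genes tested, 2 were lower by edgeR, beside 0.758% of all genes, and 1, Pdgfb, was higher as given above (9 lower and 2 higher at an unadjusted p under 0.05, 3 lower and 2 higher by DESeq2). Of the estimates, 25 were below 0, and the median was -0.24. Gdf15, a stress cytokine, was at 166, 111 and 108 CPM in vehicle and 55.5, 46.4 and 29.4 CPM in prednisolone (-1.55 ± 0.27, adjusted p = 0.0283). Vegfa, the endothelial growth factor, was at 91.4, 74.7 and 78.3 CPM in vehicle and 52.3, 42.5 and 25.7 CPM in prednisolone (-1.02 ± 0.21, adjusted p = 0.0377). Both calls were close to the threshold and were lost without prednisolone replicate 2, any of the vehicle replicates, or spironolactone replicate 1 or 3, and that of Vegfa also without spironolactone replicate 2, with adjusted p up to 0.135. Tnf was at 149, 169 and 178 CPM in vehicle and 157, 133 and 83.1 CPM in prednisolone (-0.41 ± 0.19, adjusted p = 0.354). Il1b overlapped widely, at 459 to 958 CPM in vehicle and 594 to 1007 CPM in prednisolone (0.18 ± 0.37, adjusted p = 0.878). Of 42 genes of Toll-like receptor and NF-kappaB signaling none was called by edgeR (4 higher and 5 lower at an unadjusted p under 0.05), DESeq2 called 1 higher and 2 lower, and their median was 0.003. Tlr5 (0.56 ± 0.14, adjusted p = 0.0606) and Irak2 (-0.34 ± 0.09, adjusted p = 0.0845) had the smallest p values.

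Of 60 interferon-stimulated genes tested, 3 were lower and none higher by edgeR, beside 0.758% called lower among all genes (22 lower and 0 higher at an unadjusted p under 0.05, 6 lower and 0 higher by DESeq2). Of the estimates, 59 were below 0, and the median was -0.48. Irf1, a transcription factor of the interferon response, was at 85.6, 91.9 and 90.1 CPM in vehicle and 65.8, 62.1 and 63.2 CPM in prednisolone (-0.49 ± 0.09, adjusted p = 0.0122). Oas2 was at -0.52 ± 0.12 (adjusted p = 0.0393) and Gbp8 at -1.34 ± 0.30 (adjusted p = 0.0362). The vehicle libraries differed among themselves for Isg15, an interferon-induced ubiquitin-like protein. It was at 35.8, 57.5 and 102 CPM in vehicle replicates 1 to 3 and 49.3, 22.3 and 44.3 CPM in prednisolone replicates 1 to 3 (-0.75 ± 0.45, adjusted p = 0.533). The summed level was 6027 to 9706 CPM in vehicle and 4639 to 7067 CPM in prednisolone. The number of members called lower was 0 without prednisolone replicate 2 or vehicle replicate 2, 1 without prednisolone replicate 1 or spironolactone replicate 2, 9 without vehicle replicate 1, and 39 when no filter on low counts was used. Irf1 lost its call without prednisolone replicate 2 or 3 or vehicle replicate 2, with adjusted p up to 0.0985.

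**Figure D3:**
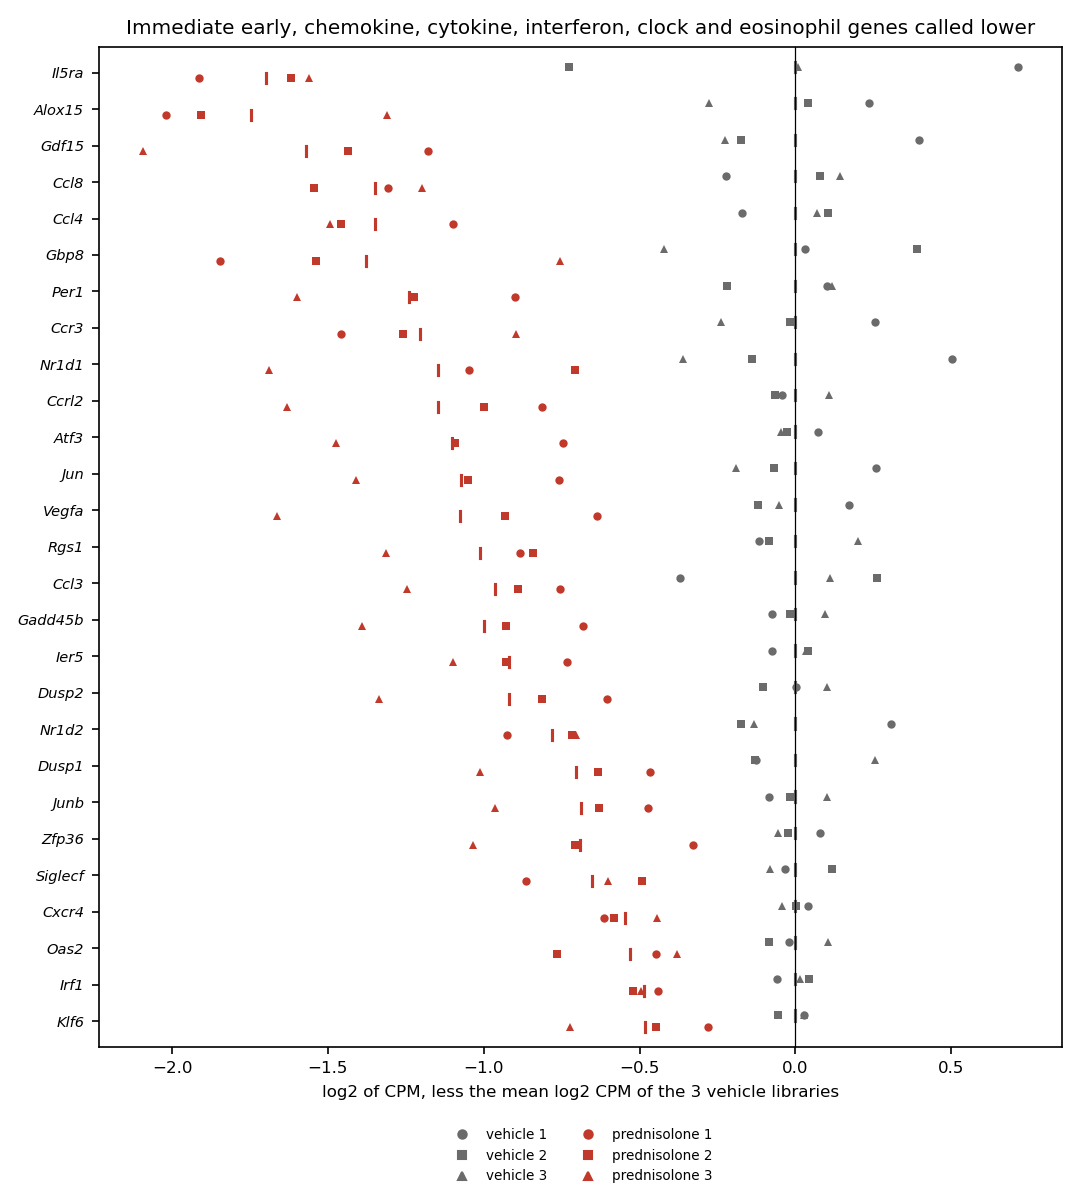
For each of 27 genes called lower in the immediate early, chemokine, chemokine receptor, cytokine, interferon, clock and eosinophil lists, points show the log2 CPM of each vehicle (gray) and prednisolone (red) library after subtraction of the mean of the 3 vehicle libraries, and short bars show group means. All red points lie to the left of all gray points of the same gene, and the red triangle of prednisolone replicate 3 is the leftmost for the immediate early genes.

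Of 33 genes that glucocorticoids induce in many tissues, 4 were lower after prednisolone and none was called higher by edgeR, beside 0.758% lower and 1.0% higher among all genes, with a median of -0.19. At an unadjusted p under 0.05 the numbers were 3 higher and 10 lower, and DESeq2 called 1 higher, Cd163, and 8 lower. Per1, a clock gene with a glucocorticoid response element, was at 261, 209 and 264 CPM in vehicle and 131, 104 and 80.3 CPM in prednisolone (-1.22 ± 0.17, adjusted p = 0.00436). Rgs2, a regulator of G protein signaling, was at 332, 360.2 and 316 CPM in vehicle and 224, 229 and 215 CPM in prednisolone (-0.59 ± 0.09, adjusted p = 0.00455). Rhob, a small GTPase, was at 496, 478 and 434 CPM in vehicle and 312, 306 and 240.1 CPM in prednisolone (-0.71 ± 0.11, adjusted p = 0.00651). The fourth was Cebpb, a transcription factor of macrophages, at 999, 1194 and 1417 CPM in vehicle and 762, 637 and 587 CPM in prednisolone (-0.86 ± 0.15, adjusted p = 0.0108, and 0.0857 and 0.0557 without prednisolone replicates 2 and 3). All prednisolone libraries lay below all vehicle libraries in each of these genes.

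Fkbp5, the immunophilin used as a standard readout of receptor activity, was at 75.1, 65.4 and 51.1 CPM in vehicle and 60.7, 57.2 and 50.4 CPM in prednisolone (-0.19 ± 0.14, adjusted p = 0.606). Tsc22d3, which encodes GILZ, was at 157, 146 and 167 CPM in vehicle and 87.9, 110.2 and 104 CPM in prednisolone (-0.64 ± 0.16, adjusted p = 0.0675). Its prednisolone libraries were all below its vehicle libraries, but the difference did not pass. Zbtb16 (-0.68 ± 0.19, adjusted p = 0.0858), Sgk1 (-0.48 ± 0.15, adjusted p = 0.165), Klf9 (-0.33 ± 0.12, adjusted p = 0.223) and Anxa1 (0.10 ± 0.13, adjusted p = 0.806) did not pass either. Cd163, the hemoglobin scavenger receptor that glucocorticoids raise in cultured macrophages, was at 19.8, 13.2 and 10.3 CPM in vehicle and 22.4, 29.9 and 26.2 CPM in prednisolone (0.86 ± 0.23, adjusted p = 0.0992).

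The receptor itself did not differ detectably. Nr3c1, which encodes the glucocorticoid receptor, was at 93.8, 93.1 and 95.7 CPM in vehicle and 97.0, 85.9 and 95.8 CPM in prednisolone (-0.02 ± 0.09, adjusted p = 0.949). Nr3c2, the gene of the mineralocorticoid receptor, was under 1 CPM in each of the 6 libraries. Of 18 receptor, chaperone, co-regulator and transporter genes, 1 was called by edgeR and by DESeq2, beside 1.0% called higher among all genes: Abcb1b, a drug efflux pump with steroids among its substrates, at 29.1, 28.05 and 26.3 CPM in vehicle and 35.7, 37.4 and 37.4 CPM in prednisolone (0.41 ± 0.09, adjusted p = 0.0377). That call was lost without 7 of the 9 libraries, all but spironolactone replicate 1 and vehicle replicate 1, with adjusted p up to 0.162.

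Clock genes moved in part. Besides Per1, the nuclear receptors Nr1d1 and Nr1d2, repressors of the clock, were lower among 19 tested, beside 0.758% called lower among all genes, and none was called higher by edgeR (5 lower and 4 higher at an unadjusted p under 0.05, 4 lower and 0 higher by DESeq2). Nr1d2 was at 17.8, 12.7 and 13.1 CPM in vehicle and 7.56, 8.74 and 8.82 CPM in prednisolone (-0.80 ± 0.16, adjusted p = 0.0237, and up to 0.11 without any of the prednisolone replicates). Nr1d1 was at 12.1, 7.74 and 6.64 CPM in vehicle and 4.13, 5.23 and 2.64 CPM in prednisolone (-1.14 ± 0.26, adjusted p = 0.0457) and kept the call in 1 of the 9 fits, that without vehicle replicate 3. Per2 was not lower (0.58 ± 0.24, adjusted p = 0.295), and Dbp showed -0.29 ± 0.33 (adjusted p = 0.762). The median of the list was 0.12. The hour of collection is not given in the sources used here.

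Of 15 eosinophil and mast cell genes tested, 4 were lower and none higher by edgeR, beside 0.758% called lower among all genes (7 lower and 1 higher at an unadjusted p under 0.05, 6 lower and 0 higher by DESeq2), and the median was -0.34. Alox15, a lipoxygenase of eosinophils and of macrophages exposed to interleukin 4, was at 70.9, 61.8 and 49.6 CPM in vehicle and 14.9, 16.05 and 24.2 CPM in prednisolone (-1.73 ± 0.22, adjusted p = 0.00545). Ccr3, the eotaxin receptor, was at 14.8, 12.3 and 10.5 CPM in vehicle and 4.53, 5.20 and 6.68 CPM in prednisolone (-1.20 ± 0.21, adjusted p = 0.0128, and 0.0615 and 0.0998 without prednisolone replicates 1 and 2). Il5ra, the interleukin 5 receptor alpha chain, was at 4.32, 1.59 and 2.65 CPM in vehicle and 0.699, 0.856 and 0.891 CPM in prednisolone (-1.80 ± 0.36, adjusted p = 0.0226). Siglecf, the lectin used to sort eosinophils, was at 22.05, 24.5 and 21.3 CPM in vehicle and 12.4, 16.05 and 14.9 CPM in prednisolone (-0.65 ± 0.14, adjusted p = 0.0377). The groups did not overlap for any of the 4 genes. Il5ra lost its call without any of the prednisolone replicates, and Siglecf without those, vehicle replicate 2 or 3 or spironolactone replicate 3, with adjusted p up to 0.157. Under limma-voom 3 members of the list were lower, and Il5ra was not called. Other members did not pass. Gata1, a transcription factor of eosinophils, mast cells and erythroid cells, was at 2.16, 0.998 and 0.748 CPM in vehicle and 0.456, 0.0306 and 0.208 CPM in prednisolone (adjusted p = 0.0752). Ear2 was at 19.1 to 26.7 CPM in vehicle and 22.7 to 29.9 CPM in prednisolone (0.07 ± 0.20, adjusted p = 0.92), and Prg2, which encodes the granule major basic protein, was at 23.3 CPM in vehicle replicate 3 and at most 0.905 CPM in the other 5 libraries (adjusted p = 0.328). Ear6, a ribonuclease of the same family as Ear2, was at 5.08 CPM in vehicle replicate 3 and at most 0.487 CPM in the other 5 libraries (adjusted p = 0.348). The mast cell protease genes Tpsb2 (1.39 ± 0.48, adjusted p = 0.214), Mcpt4 (0.82 ± 0.39, adjusted p = 0.369) and Cpa3 (0.66 ± 0.48, adjusted p = 0.595) had estimates above 0. The whole list of 22 genes summed to 209.8 to 390.1 CPM in vehicle and 178 to 215 CPM in prednisolone.

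Several other large decreases had their vehicle level in the same low range. Inpp5j, an inositol phosphatase, was at 19.6, 11.9 and 12.2 CPM in vehicle and 2.61, 2.63 and 3.92 CPM in prednisolone (-2.25 ± 0.22, adjusted p = 0.000408). It overlaps Pla2g3, a secreted phospholipase, on the opposite strand, and Pla2g3 was also lower, at 2.13, 1.68 and 0.873 CPM in vehicle and 0.152, 0.214 and 0.386 CPM in prednisolone (-2.62 ± 0.52, adjusted p = 0.0211). The strand setting of the counting is not given in the sources used here, so that reads of the 2 genes cannot be told apart. The same limit holds for other named genes with an annotated partner on the opposite strand, such as Prg4 with Tpr (0.13 ± 0.09, adjusted p = 0.594), Ube2c with Tnnc2 (-0.06 ± 0.25, adjusted p = 0.945) and Junb with Prdx2 (-0.09 ± 0.09, adjusted p = 0.723). P2rx1, an ATP-gated channel, was at 7.91, 5.87 and 4.67 CPM in vehicle and 1.73, 1.44 and 2.14 CPM in prednisolone (-1.79 ± 0.26, adjusted p = 0.00376). Sytl1, a regulator of vesicle exocytosis, was at 4.38, 3.15 and 4.64 CPM in vehicle and 0.668, 1.07 and 0.564 CPM in prednisolone (-2.40 ± 0.30, adjusted p = 0.00193). Fam71a was at 32.8, 26.1 and 24.9 CPM in vehicle and 9.54, 7.52 and 4.51 CPM in prednisolone (-1.96 ± 0.22, adjusted p = 0.00163). At a higher level, Wfdc17, a small secreted inhibitor of activated macrophages, was at 117, 145 and 140.5 CPM in vehicle and 70.2, 63.1 and 66.8 CPM in prednisolone (-1.01 ± 0.10, adjusted p = 0.000408), and Sema7a, a membrane-bound semaphorin, was at 32.3, 23.0 and 23.0 CPM in vehicle and 12.2, 11.7 and 12.4 CPM in prednisolone (-1.11 ± 0.14, adjusted p = 0.00201). Apart from Pla2g3, the calls of this paragraph were kept without each of the 9 libraries.

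Among all genes 1.0% were called higher and 0.758% lower, and the lists of the main myeloid populations are given beside these shares. Of 25 genes of F4/80hi resident macrophages, 1 was called, Ccl8 (4 higher and 7 lower at an unadjusted p under 0.05, 3 higher and 3 lower by DESeq2), and the median was -0.11. Lyve1, a hyaluronan receptor of resident macrophages and lymphatic endothelium, was at 16.5, 10.5 and 7.54 CPM in vehicle and 25.2, 41.9 and 26.3 CPM in prednisolone, and its difference did not pass (1.44 ± 0.34, adjusted p = 0.0816). Adgre1, which encodes F4/80, was at 710.3, 683 and 631 CPM in vehicle and 655, 646 and 733 CPM in prednisolone (0.01 ± 0.09, adjusted p = 0.986), and Mrc1, which encodes CD206, was at 0.21 ± 0.14 (adjusted p = 0.545). Of 22 monocyte genes, edgeR called 1 (3 higher and 2 lower at an unadjusted p under 0.05, 2 higher and 1 lower by DESeq2). This was Spn, a sialomucin of the nonclassical subset, at 31.2, 35.7 and 42.9 CPM in vehicle and 49.9, 55.5 and 66.9 CPM in prednisolone (0.65 ± 0.14, adjusted p = 0.0286, and up to 0.119 without prednisolone replicate 2 or 3 or vehicle replicate 2). None of 23 neutrophil genes was called by edgeR (0 higher and 7 lower at an unadjusted p under 0.05), and DESeq2 called 3 lower. Their median of -0.92 was the lowest of the 39 lists, with the level of vehicle replicate 3 given above beside it, and Padi4 (-0.52 ± 0.14, adjusted p = 0.0913) and Mpo (adjusted p = 0.23, at 0, 0.397 and 0.0297 CPM in prednisolone libraries) had the smallest p values. Among 24 dendritic cell genes none was called by edgeR (3 higher and 3 lower at an unadjusted p under 0.05), DESeq2 called 2 higher and 2 lower, and Flt3 came closest at 18.2, 13.6 and 15.8 CPM in vehicle and 24.5, 21.7 and 22.2 CPM in prednisolone (0.52 ± 0.13, adjusted p = 0.0536). Aif1, the macrophage gene that encodes Iba1, was the only one of 10 markers of the sorted gate that edgeR or DESeq2 called (2 lower and 0 higher at an unadjusted p under 0.05), at 53.6, 74.1 and 75.3 CPM in vehicle and 39.9, 34.0 and 46.3 CPM in prednisolone (-0.76 ± 0.14, adjusted p = 0.0138, and up to 0.101 without prednisolone replicate 1 or 2 or vehicle replicate 2).

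In the list of interleukin 4 and 13 response genes, 1 of 29 was higher and 2 were lower by edgeR, beside 1.0% higher and 0.758% lower among all genes, with a median of 0.08 (4 higher and 4 lower at an unadjusted p under 0.05, 3 higher and 2 lower by DESeq2). The shared cytokine receptor chain Il2rg was higher by 0.43 ± 0.10 (adjusted p = 0.044), Alox15 was lower as given above, and Retnla, a secreted marker of alternative activation, was lower at 14.3, 17.3 and 11.997 CPM in vehicle and 8.26, 9.75 and 8.55 CPM in prednisolone (-0.71 ± 0.15, adjusted p = 0.0263). Il2rg lost its call without any of the prednisolone replicates, vehicle replicate 2 or 3 or spironolactone replicate 1 or 2, and Retnla without any of the prednisolone replicates or vehicle replicate 2, with adjusted p up to 0.157. The eicosanoid list of 29 (2 higher and 5 lower at an unadjusted p under 0.05, 1 higher and 5 lower by DESeq2) held Alox15 and the prostaglandin E2 receptor Ptger4 among lower genes (-0.51 ± 0.10, adjusted p = 0.0256, and up to 0.156 without prednisolone replicate 2 or 3 or vehicle replicate 2) and the prostacyclin receptor Ptgir as the 1 higher gene (0.66 ± 0.13, adjusted p = 0.0208, and up to 0.101 without any of the prednisolone replicates). In the clearance of dead cells, Cd5l, a scavenger protein secreted by macrophages, was the 1 gene called by edgeR among 32 tested (4 higher and 4 lower at an unadjusted p under 0.05, 1 higher and 2 lower by DESeq2) and was lower, at 31.6, 22.6 and 26.4 CPM in vehicle and 16.6, 9.72 and 14.3 CPM in prednisolone (-0.99 ± 0.21, adjusted p = 0.0357). It lost the call without prednisolone replicate 2 or 3, any of the vehicle replicates or spironolactone replicate 3, with adjusted p up to 0.118.

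Apoptosis genes were called in 2 of 33, both lower, beside 0.758% called lower among all genes (9 lower and 0 higher at an unadjusted p under 0.05, 2 lower and 0 higher by DESeq2). Pmaip1, which encodes the BH3-only protein NOXA, was at 42.8, 47.5 and 48.4 CPM in vehicle and 27.3, 23.1 and 21.7 CPM in prednisolone (-0.94 ± 0.12, adjusted p = 0.00193) and kept its call without each of the 9 libraries. Bcl2a1b, an antiapoptotic gene of a family of near-identical copies whose reads may be split, was at -0.45 ± 0.10 (adjusted p = 0.0296, and up to 0.131 without any of the prednisolone replicates, vehicle replicate 2 or 3 or spironolactone replicate 2). Of 36 hypoxia and glycolysis genes, edgeR called 1 higher and 1 lower, beside 1.0% higher and 0.758% lower among all genes (3 higher and 5 lower at an unadjusted p under 0.05, 2 higher and 2 lower by DESeq2). Vegfa was lower and the phosphofructokinase Pfkp higher at 0.36 ± 0.08 (adjusted p = 0.0377). Pfkp kept its call only without vehicle replicate 1 or spironolactone replicate 1, and its adjusted p was otherwise up to 0.151. Hif1a was at 157, 211 and 202 CPM in vehicle and 263, 234 and 255 CPM in prednisolone, a difference that did not pass (0.40 ± 0.11, adjusted p = 0.0905). Of 24 complement genes tested, Itgax, given above, was the 1 called by edgeR, beside 1.0% called higher among all genes (4 higher and 3 lower at an unadjusted p under 0.05, 1 higher and 1 lower by DESeq2). No gene was called by edgeR among 17 MHC class II, 20 iron and heme, and 32 cholesterol and LXR genes, where the numbers at an unadjusted p under 0.05 were 3, 9 and 2 and those of DESeq2 were 0, 4 and 0. The closest were Lgmn (-0.27 ± 0.12, adjusted p = 0.306), Fth1 (-0.36 ± 0.09, adjusted p = 0.0762) and Mylip (-0.30 ± 0.10, adjusted p = 0.199).

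Of the lists for cells outside the gate, those of skeletal muscle fibers, endothelium and, with Cspg4, mural and satellite cells each had 1 member called higher by edgeR, of 28, 24 and 22 tested and beside 1.0% called higher among all genes. DESeq2 called 2 higher among muscle genes, 2 higher and 1 lower among endothelial genes and 1 higher among mural and satellite cell genes. At an unadjusted p under 0.05 the numbers were 8 higher and 1 lower, 3 higher and 1 lower, and 1 higher and 1 lower. Myh1, a myosin heavy chain of fast fibers, was at 2.55, 3.84 and 2.96 CPM in vehicle and 5.98, 7.24 and 6.41 CPM in prednisolone (1.07 ± 0.22, adjusted p = 0.0239, and up to 0.131 without any of the prednisolone replicates or vehicle replicate 3). The 29 muscle genes summed to 498 to 713 CPM in vehicle and 701 to 998 CPM in prednisolone. Atp2a1, the calcium pump of fast fibers, was at 22.0, 29.5 and 28.3 CPM in vehicle and 47.2, 63.9 and 32.4 CPM in prednisolone (0.85 ± 0.25, adjusted p = 0.154). Xirp2, a striated muscle gene outside the lists that was picked after its values were seen, was at 3.62, 5.12 and 5.73 CPM in vehicle and 11.8, 13.4 and 8.97 CPM in prednisolone (1.24 ± 0.25, adjusted p = 0.0239, and up to 0.129 without prednisolone replicate 1 or 2 or vehicle replicate 2). Cav1, the gene of caveolin 1, was higher by 0.75 ± 0.16 (adjusted p = 0.0374, and up to 0.156 without any of the prednisolone replicates, vehicle replicate 2 or spironolactone replicate 3), while the endothelial marker Pecam1 showed -0.13 ± 0.18 (adjusted p = 0.81). The 24 endothelial genes summed to 403 to 507 CPM in vehicle and 459 to 592 CPM in prednisolone. No gene was called by edgeR among 24 lymphocyte genes tested, of which 8 were lower and 1 higher at an unadjusted p under 0.05 and 3 lower and 0 higher by DESeq2. Of their estimates 22 were below 0, with a median of -0.52, and the summed level was 67.2 to 80.5 CPM in vehicle and 50.6 to 71.3 CPM in prednisolone. Cd3e, a listed gene of the T cell receptor complex, was at 0.243, 0.593 and 0.436 CPM in vehicle. It was at 0.152, 0.428 and 0.208 CPM in prednisolone (-0.68 ± 0.68, adjusted p = 0.715). Called lower were 4 genes known from lymphocytes that are not on the list and were picked after their values were seen. Which cells carried these 4 transcripts was not tested. Cd28, a costimulatory receptor of T cells, was at 13.015, 10.5 and 9.38 CPM in vehicle and 5.92, 5.26 and 6.47 CPM in prednisolone (-0.90 ± 0.17, adjusted p = 0.0159). The activation marker Cd69 (-0.89 ± 0.20, adjusted p = 0.0354), the transcription factor Ikzf3 (-1.33 ± 0.26, adjusted p = 0.0202) and the kinase Prkcq (-1.23 ± 0.25, adjusted p = 0.0264) were the others. All 4 lost the call without prednisolone replicate 1 or 2, Cd69, Ikzf3 and Prkcq also without vehicle replicate 3, Cd69 and Prkcq also without prednisolone replicate 3 or vehicle replicate 2, and Cd69 also without spironolactone replicate 2, with adjusted p up to 0.187. None of 15 erythroid and platelet genes tested was called by edgeR (2 lower and 0 higher at an unadjusted p under 0.05, 1 lower by DESeq2). The part of cells outside the gate in these values was not tested.

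**Figure D4:**
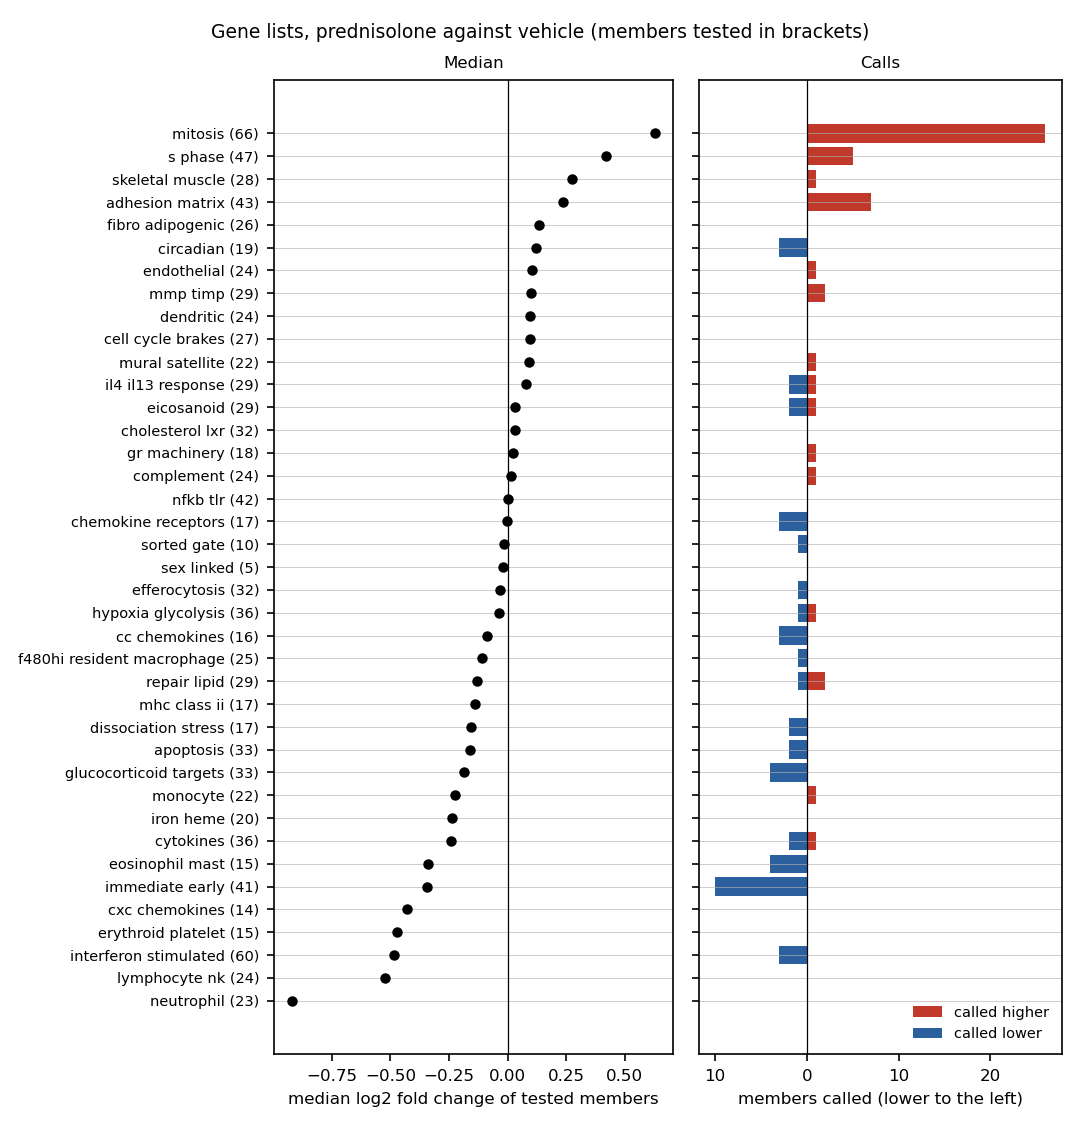
Each row is 1 gene list, with the number of members tested in brackets; the left panel shows the median log2 fold change, prednisolone minus vehicle, and the right panel the number of members called higher (red) and lower (blue). Mitosis has the highest median (0.63) and 26 members called higher, the immediate early list has 10 called lower, and the neutrophil list has the lowest median (-0.92) with none called.

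Spironolactone libraries were compared with prednisolone libraries in the same fit, where 859 of 16618 genes (5.17%) differed. The genes named here were chosen on the same prednisolone libraries, so that this comparison is not independent of their choice. Plk1 differed from vehicle by 0.92 with prednisolone and by 0.28 with spironolactone, and the drugs differed (adjusted p = 0.0148). Prg4 differed from vehicle by 1.86 and 0.03 (adjusted p of the difference between drugs = 0.000305), Mmp19 by 0.89 and -0.34 (adjusted p = 0.000414) and Alox15 by -1.73 and 0.42 (adjusted p = 0.00124). Jun was at -1.06 with prednisolone and -0.22 with spironolactone (adjusted p = 0.0125), and Ccl4 at -1.34 and -0.57 (adjusted p = 0.00254). Not every gene separated the drugs. Dusp1 was at -0.70 and -0.53 (adjusted p = 0.544), Ccrl2 at -1.11 and -0.81 (adjusted p = 0.323), Vegfa at -1.02 and -0.93 (adjusted p = 0.845), Ccl3 at -0.97 and -0.54 (adjusted p = 0.119) and Per1 at -1.22 and -0.72 (adjusted p = 0.0987). For Fn1, which did not pass against vehicle, the drugs lay on opposite sides of vehicle at 0.57 and -0.55 and differed from each other (adjusted p = 0.00254). Hif1a was at 0.40 and -0.41 (adjusted p = 0.00189), and Thbs1, an adhesive glycoprotein, at -0.40 and -0.83 (adjusted p = 0.0677); neither passed with prednisolone against vehicle (adjusted p = 0.0905 and 0.141).

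**Figure D5:**
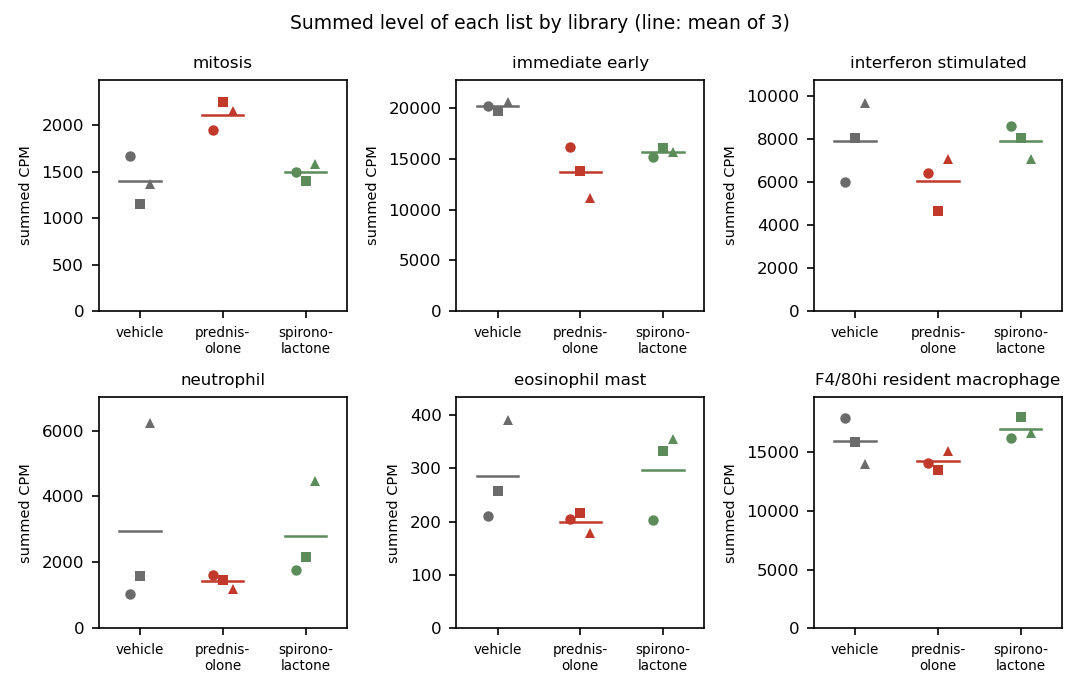
Each panel shows the summed CPM of the members of 1 list in the 9 libraries, with the 3 libraries of a group as circle, square and triangle for replicates 1 to 3 and a line at their mean. For mitosis genes the 3 prednisolone libraries (1948 to 2250 CPM) are above all others, for immediate early genes all drug-treated libraries are below vehicle, and vehicle replicate 3 stands alone among the 6 vehicle and prednisolone libraries at 6232 CPM in the neutrophil panel.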

How the data were processed

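The data are RNA-seq counts of CD45+CD11b+ cells sorted from quadriceps, with 3 libraries of prednisolone, 3 of vehicle and 3 of spironolactone, each pooled from 3 mice. The authors made the deposited counts by alignment to mm39 and counting per gene, and the submitters' processing notes name HISAT2 2.2.1, HTSeq 0.11.3 and DESeq2 1.32.0. The annotation release and the strand setting are not given in the sources used here. The counts are whole and not normalized. Lines that name no gene (17.2% to 21.8% of a library) were left out. The deposited tables of the authors' own DESeq2 comparisons, with normalized means, fold changes and p-values, were not used.

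Genes were tested with edgeR 4.0.16 in R 4.3.3 (TMM, filterByExpr with a minimum count of 10 and a minimum total of 15, glmQLFit with robust=TRUE, all 9 libraries in one fit, 6 residual degrees of freedom), two-sided, with Benjamini-Hochberg adjustment over 16618 genes. The biological coefficient of variation was 0.170. Counting error matters for genes with few counts, and 3 against 3 libraries in an exact permutation test could reach no p under 0.1. Libraries are separate pools of mice. The test was tested on simulated counts, where it did not recover every gene that had been changed. A gene that was not called can therefore still differ.

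Alternatives were DESeq2 1.42.0, limma-voom (limma 3.58.1), other scalings, filters and libraries, stricter thresholds, the omission of each library, a covariate for Xist and a replicate block. Positions and overlapping genes are from GENCODE vM39 (GRCm39). Promoter windows of 300 bases are from RefSeq (GRCm38.p6) and were matched by symbol. Named genes were, for each direction, the 12 with the smallest adjusted p among calls of at least 1 on the log2 scale with groups that did not overlap, the 6 most abundant calls, up to 4 calls of each list (or, with no call, the 2 members with the smallest p) and the genes the study names for these cells; symbols that are only model names were passed over. Other members of a list are named with values. The 39 lists and the members were chosen with earlier results of these data known. One result is not reported here.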

Additional observations from a re-analysis of the deposited data

How the results depend on the processing

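The number of genes called ranged from 69 to 826 over the 9 fits that leave out 1 library, with 34 to 412 higher and 35 to 414 lower. DESeq2 called 684 genes on all 9 libraries (385 higher, 299 lower) and 655 on the 6 prednisolone and vehicle libraries (393 higher, 262 lower). Without a filter on low counts edgeR called 1019 (525 higher, 494 lower). With an adjusted p under 0.01 the numbers were 67, 34 and 33, and with a difference of at least 1 they were 74, 33 and 41. The cause of these changes was not tested, except that a stricter rule makes fewer calls by construction. Leaving out vehicle replicate 1 gave more calls than the full set of libraries, as did leaving out spironolactone replicate 1 (336). The remaining settings gave 239 to 297 calls, and a fit with a replicate block, whose numbers were not taken to pair the libraries (correlations of deviations between libraries of the same number -0.038 to -0.010), gave 336, with 268 of the 293 kept. Under the block, Ctsk (adjusted p = 0.0507), Dusp1 (0.0523), Il2rg (0.0521), Hspa1b (0.0521) and Cav1 (0.109) no longer passed. Among the 12 alternatives in tool, scaling, filter, dispersion, block and covariate, 186 of the 293 calls were kept in all, and 63 were kept when the omission of each library was added; none was called in the opposite direction. On the 6 libraries alone, Zfp36 (0.0733), Dusp1 (0.0563), Gdf15 (0.055), Vegfa (0.106), Gbp8 (0.0776), Oas2 (0.0514), Retnla (0.0514), Nr1d1 (0.0929), Pfkp (0.0753), Abcb1b (0.0572), Gusb (0.0526), Il2rg (0.064), Chst11 (0.0653), Sdc1 (0.0621), Cd69 (0.0529) and Prkcq (0.0537) did not pass, and under limma-voom Tg (0.0634), Ina (0.0557) and Arfgef3 (0.0527) did not. Il5ra did not pass under limma-voom either. Named calls not kept in all 12 of the alternatives also included Pcsk5 and Top2a. Depth limits the precision of genes with few counts, such as Ina in vehicle. What it limits in other genes was not tested.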

Other observations

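Further genes called by edgeR lie outside the lists described above; they were picked after their values were seen and are given as values only. The genes called lower included Cebpa, a transcription factor of myeloid cells. Cebpa was at 503, 524 and 479 CPM in vehicle and 369, 358 and 369 CPM in prednisolone (-0.46 ± 0.08, adjusted p = 0.0139), and the inhibitors of DNA binding Id2 and Id3 were at -0.53 ± 0.11 (adjusted p = 0.0256) and -0.97 ± 0.17 (adjusted p = 0.0123). Each of the 3 lost its call without prednisolone replicate 2 or 3, Cebpa also without prednisolone replicate 1, and Cebpa and Id2 also without vehicle replicate 2, with adjusted p up to 0.152. Cd274, which encodes PD-L1, was at 74.4, 61.6 and 71.2 CPM in vehicle and 38.5, 34.1 and 33.5 CPM in prednisolone (-0.97 ± 0.11, adjusted p = 0.00116), and Cd276, which encodes B7-H3, was at 19.9, 16.7 and 23.3 CPM in vehicle and 33.8, 36.9 and 42.0 CPM in prednisolone (0.91 ± 0.13, adjusted p = 0.00333). Pdcd1lg2, which encodes PD-L2, did not pass (-0.62 ± 0.31, adjusted p = 0.396).

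A gene of the actin cytoskeleton and genes of chondroitin sulfate synthesis were among those called higher. Actn1, which encodes an actin crosslinker, was at 0.52 ± 0.10 (adjusted p = 0.0192, and up to 0.117 without prednisolone replicate 1 or 2 or vehicle replicate 2). The sulfotransferases Chst3 and Chst11, which modify chondroitin sulfate chains of the kind carried by Cspg4, were at 1.71 ± 0.33 (adjusted p = 0.0195) and 0.56 ± 0.12 (adjusted p = 0.0282). Both lost the call without prednisolone replicate 2 or 3 or vehicle replicate 2, Chst3 also without vehicle replicate 3 and Chst11 also without prednisolone replicate 1, with adjusted p up to 0.131. No test of these groups was made.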
